A study of Mus musculus with 6 samples.

Results

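The 10 genes described here are core members of the circadian clock: Arntl, Clock, Per1, Per2, Per3, Cry1, Cry2, Nr1d1, Nr1d2 and Dbp. They were chosen by gene symbol as a textbook set, and all 10 were found among the 35485 genes of each deposited table. The tables come from RNA-seq of whole retinas of wild type C57BL/6 male mice aged 12 weeks, taken 2 days after surgery. In the ONC (optic nerve crush) group the optic nerve was exposed and crushed for 10 seconds at 2 mm behind the globe, and in the sham group it was exposed only. Each group had 3 samples, each of them a pool of 6 retinas from 6 mice. The 3 samples of a group thus stand for 18 mice, and the p-values below measure the spread between pools. Both groups underwent the same anesthesia, with ketamine and xylazine, and no group without surgery was analysed here. The hour at which retinas were taken is not given in the labels, so that time of day and group cannot be told apart.

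In the clock, the transcription factors ARNTL (also called BMAL1) and CLOCK bind E-box sequences as a pair and switch on the Per and Cry genes, whose proteins return to the nucleus and repress that pair. A second loop joins the same pair to the nuclear receptors NR1D1 and NR1D2 (REV-ERB alpha and beta), which repress Arntl through ROR elements, where the ROR proteins activate it. Dbp, driven from E-boxes, encodes a factor that activates genes with a D-box, so that transcripts of Arntl and those of Nr1d1, Dbp and Per1 peak at nearly opposite times of day in most tissues. The retina holds a clock of its own, which is known for the daily rhythms of dopamine, melatonin and visual sensitivity.

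Reads on exons numbered 17343945 to 18349331 per sham pool and 20019818 to 20358008 per ONC pool, of which 20818 to 24907 fell on the 10 clock genes. The share of gene reads on exons, as opposed to introns, was 70.9% to 76.6% in sham and 78.5% to 80.4% in ONC, without overlap. ONC replicate 1 stood apart within its group: the chi-square per degree of freedom of exon reads was 13.8 and 10.8 against replicates 2 and 3, and 4.54 between those. For clock genes by exon reads, a sign or a call that changed without it is given below, as is the value of Per3. The order of the ONC pools and the correlations between genes below include it and were not recomputed without it. The summed markers of rods (58690 to 66322 over all pools in CPM, counts of exon reads scaled to the same library total) were high in every pool, and those of ganglion cells, the neurons whose axons were crushed, were 497 to 551 in sham and 320 to 342 in ONC. All 6 ganglion cell markers were called lower in ONC. Microglial markers summed to 18.0 to 20.6 in sham and 22.9 to 29.99 in ONC, with 0 of 4 called by edgeR and 2 of 4 at an unadjusted p under 0.05. Lens markers summed to 6.71 to 39.3 in sham and 36.9 to 49.2 in ONC (1 of 3 tested called higher, Cryaa), and red blood cell markers to 64.2 to 131 and 42.5 to 56.5 (1 of 3 called lower, Hba-a1). Horizontal cell markers summed to 100 to 106 in sham and 81.8 to 91.9 in ONC (1 of 3 called lower, Calb1), and of 4 rod markers 1 was called higher, Pde6b. The part of these cells in the values below was not tested, and in whole retina fewer cells of a type and less RNA per cell cannot be told apart.

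Every clock gene was expressed in every pool. Levels are compared between genes in RPKM, which scales exon reads by the exon length and by the reads mapped to genes, averaged over the 6 pools. The repressors and outputs Nr1d1, with 61.3 ± 3.29 RPKM (SD, n = 6), Dbp, with 49.9 ± 3.99, and Nr1d2, with 41.9 ± 3.68, stood highest. Arntl followed at 29.5 ± 2.71, and Clock, its partner, stood at 15.8 ± 1.06. Cry2 was at 20.1 ± 1.14 and Cry1 at 17.5 ± 1.05. Of the Per genes, Per1 stood at 15.2 ± 1.70, Per3 at 11.4 ± 0.766 and Per2, the lowest of the 10, at 3.41 ± 0.192. The ranges of neighbours in this order overlapped for Cry2 and Cry1, Cry1 and Clock, and Clock and Per1, while all other neighbours were separate. Clock exceeded Per1 in 5 of the 6 pools, and each of the other neighbours kept its order in all 6. This order counts all exon reads, of which 72.4% to 77.0% were uniquely mapped for Dbp and 88.7% to 92.4% for Cry2. The places of Dbp and Cry2 in it are therefore uncertain, and the order was not recomputed from uniquely mapped reads.

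The deposited positions match GRCm38. Per1 lies on chromosome 11 from 69098956 to 69109960, and Nr1d1 on the same chromosome from 98767935 to 98775242. Arntl, on chromosome 7 from 113207465 to 113314126, is the longest of the 10 genes, and Dbp, on the same chromosome from 45705247 to 45710203, the shortest. Per2 lies on chromosome 1 (91415982 to 91459328), Cry2 on chromosome 2 (92403646 to 92434069), Per3 on chromosome 4 (151003655 to 151044622) and Clock on chromosome 5 (76212177 to 76304548). Cry1 lies on chromosome 10 (85131700 to 85185054) and Nr1d2 on chromosome 14 (18204056 to 18239106). The 3′ end of Nr1d1 overlaps that of Thra, a thyroid hormone receptor gene, over 1075 bases, and Dbp overlaps Sphk2, a sphingosine kinase gene, over 741 bases. Cry2 overlaps the noncoding RNA gene D930015M05Rik over 23417 bases, Arntl overlaps Gm33721 over 18143, Per2 overlaps Gm35591 over 14768 and Per3 overlaps Uts2 over 4714. Clock overlaps the pseudogene Ube2n-ps1 over 1213 bases and Gm7467 over 652. Since the counting is not stated to use strand, reads in such an overlap cannot be assigned. Between 72.4% and 77.0% of the Dbp exon reads and between 88.7% and 92.4% of those of Cry2 were uniquely mapped, against at least 99.9% for the other clock genes.

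Promoters were searched for the short elements that the loops are known to act through. RefSeq promoter windows on GRCm38.p6, from 250 bases before to 50 after a transcript start, were held for 9 of the 10 genes (13 windows). They were searched on both strands for the E-box CACGTG, the D-boxes TTATGTAA and TTACGTAA, the ROR element core TAGGTCA and the cAMP element TGACGTCA. Windows of 4 clock genes held at least one of them. Per1 and Arntl had 2 windows each, of which only 1 held an element. For Arntl it was not the window of the gene start given above. Distances are from the transcript start of the window that held the element. The stretches that hold the elements are shown 5′ to 3′ on the strand of the gene, with the element in capitals, because the genes are grouped by these loops below. Per1 (chr11:69098753-69098818, plus strand) held an E-box 166 bases before the start, Cry1 (chr10:85185079-85185144, minus strand) an E-box 60 bases before it, Per3 (chr4:151044786-151044900, minus strand) 2 D-boxes 205 and 158 bases before it, and Arntl (chr7:113207530-113207558, plus strand) a ROR element core 30 bases after it.
Per1: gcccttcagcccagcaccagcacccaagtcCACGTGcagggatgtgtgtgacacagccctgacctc
Cry1: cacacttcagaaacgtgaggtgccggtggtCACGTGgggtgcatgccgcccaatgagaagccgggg
Per3: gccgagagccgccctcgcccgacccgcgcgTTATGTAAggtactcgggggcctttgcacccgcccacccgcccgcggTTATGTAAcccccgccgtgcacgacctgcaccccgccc
Arntl: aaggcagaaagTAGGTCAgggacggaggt

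Of all 32851 promoter windows, 7.15% held this E-box, 1.06% a D-box, 2.61% the ROR element core and 1.79% the cAMP element. The matches describe letters in a window and do not show that a factor was bound.

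The comparison of ONC with sham asked whether the transcripts of the clock differed 2 days after injury of the ganglion cell axons. Exon reads of all 13670 genes whose mean RPKM exceeded 0.3 in either group were compared with edgeR's quasi-likelihood test, and a gene was called at a Benjamini-Hochberg adjusted p under 0.1 over all of them. Of the 10 clock genes, 0 were called, where 6.09% of all genes tested were (833 genes, 325 higher and 508 lower in ONC). At an unadjusted p under 0.05 there was 1 clock gene, Per2, against 16.7% of all genes tested, and DESeq2 and limma also called 0. The log2 fold changes ran from -0.24 to 0.06 with a median of -0.09, against 0.01 over all genes tested, and 8 of 10 were below 0, against 47.7% of all genes. In this fit the widest 95% bound, that of Per2, was -0.46, or 1.37-fold, so that each interval lay inside the fold change of 1.5 that the study required. These intervals hold gene by gene for whole retina after TMM scaling, and set no limit to a change within the ganglion cells. The levels below are CPM of exon reads after TMM scaling, which sets the typical gene at no change.

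**Figure D1:**
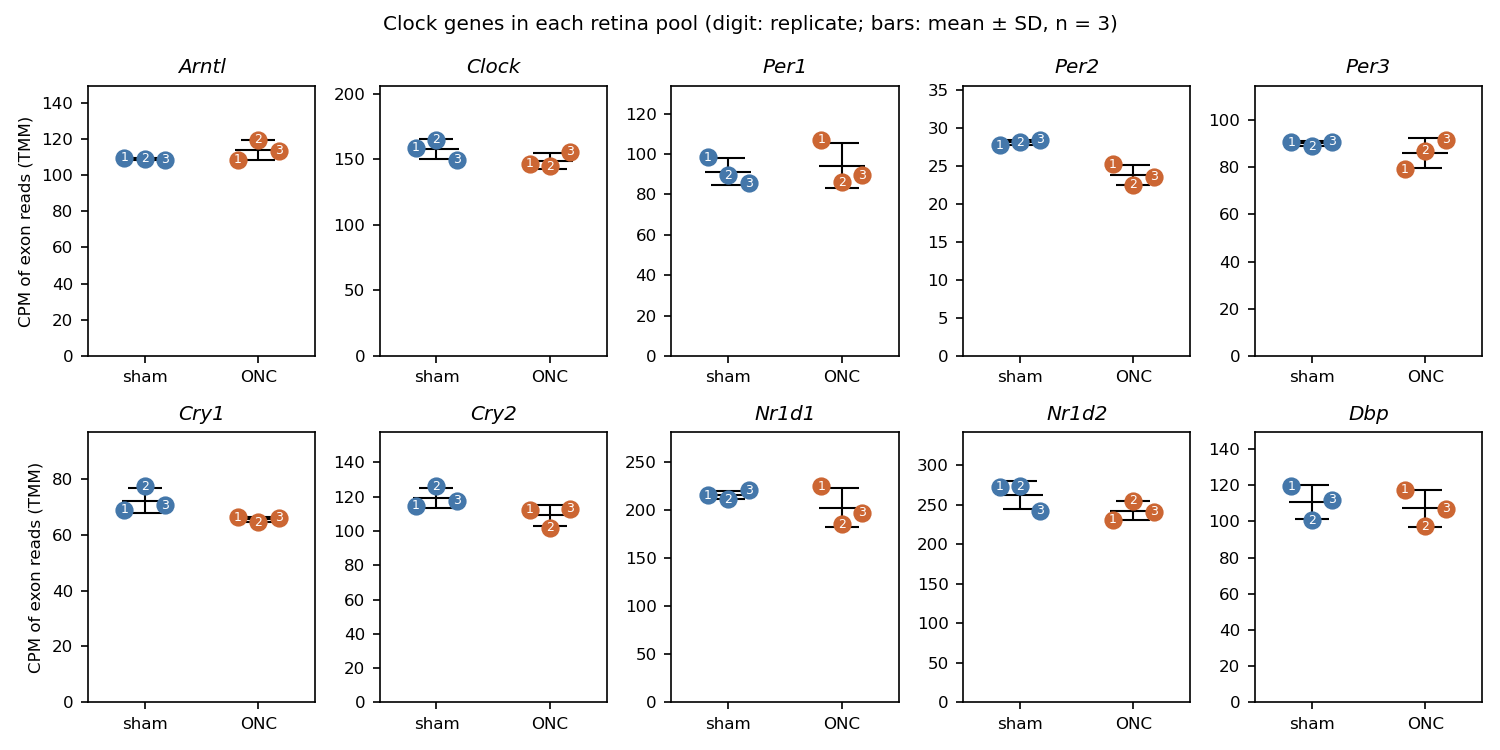
CPM of exon reads after TMM scaling (vertical axis, from 0) of each clock gene in the 3 sham pools (blue) and the 3 ONC pools (orange), with the replicate number in each point and bars for the mean ± SD (n = 3). The groups are separate in Per2, Cry1 and Cry2, and ONC replicate 1 is the highest ONC pool in Per1, Nr1d1 and Dbp and the lowest in Arntl.

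Neither of the activators Arntl and Clock was called. Arntl stood at 110, 109 and 108 CPM in sham replicates 1, 2 and 3 and at 109, 119 and 113 in the ONC replicates, so that the lowest ONC pool lay among the sham pools. Its log2 fold change was 0.06 (SE 0.06, 95% interval -0.07 to 0.19, edgeR adjusted p = 0.675). Clock stood at 159, 165 and 150 in sham and at 146, 144 and 156 in ONC, with overlap, and its log2 fold change was -0.08 (SE 0.06, 95% interval -0.21 to 0.05, edgeR adjusted p = 0.531). The sham pools of Arntl spread by a coefficient of variation of only 0.53%, and those of Clock by 4.80%.

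The Per genes, early targets of the activator pair and the rate-limiting partners of the repressor complex, had no called member and differed in direction. Per1, which is also induced by light and stress hormones, stood at 98.5, 89.4 and 85.6 CPM in sham and at 107, 85.9 and 89.5 in ONC. The groups overlapped, with the highest level of all pools in ONC replicate 1, and the log2 fold change was 0.05 (SE 0.08, 95% interval -0.13 to 0.22, edgeR adjusted p = 0.827). Without ONC replicate 1 it was -0.06. Per2 stood at 27.7, 28.2 and 28.4 in sham and at 25.2, 22.6 and 23.6 in ONC. Every ONC pool was below every sham pool, and the log2 fold change of -0.24 (SE 0.10, 95% interval -0.46 to -0.02) was the largest of the 10 in size, with an unadjusted p of 0.0324 that did not pass the adjustment (edgeR adjusted p = 0.243). Over the alternative settings the adjusted p of Per2 ran from 0.111 to 0.596. Per3 stood at 90.6, 88.9 and 90.8 in sham and at 79.1, 87.0 and 91.5 in ONC, with the lowest and the highest level both in ONC pools and a log2 fold change of -0.07 (SE 0.07, edgeR adjusted p = 0.669). Without ONC replicate 1, its lowest pool, the log2 fold change of Per3 was -0.01.

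The cryptochromes, the repressors that bind the activator pair, were both slightly lower in ONC without passing the test. Cry1 stood at 68.8, 77.2 and 70.4 CPM in sham and at 66.1, 64.5 and 66.0 in ONC, a log2 fold change of -0.14 (SE 0.07, 95% interval -0.29 to 0.01, edgeR adjusted p = 0.348). Cry2 stood at 115, 126 and 118 in sham and at 112, 102 and 113 in ONC, a log2 fold change of -0.13 (SE 0.07, 95% interval -0.27 to 0.01, edgeR adjusted p = 0.331). In both genes no ONC pool reached a sham pool. With Per2, 3 of the 10 clock genes were below sham in every ONC pool, where 10.8% of all genes tested were, and 0 of 10 were above it in every ONC pool, against 11.0% of all genes.

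The nuclear receptors Nr1d1 and Nr1d2 and the output factor Dbp overlapped between the groups. Nr1d1 stood at 216, 212 and 221 CPM in sham and at 225, 185 and 198 in ONC, a log2 fold change of -0.09 (SE 0.07, 95% interval -0.23 to 0.05, edgeR adjusted p = 0.519). Its sham pools spread by a coefficient of variation of 2.09% and its ONC pools by 10.0%, with ONC replicate 1 above every sham pool and replicates 2 and 3 below every one. Without ONC replicate 1 its log2 fold change was -0.17 and it was called (edgeR adjusted p = 0.0369), the only clock gene called in any alternative. In that fit 2031 genes were called in all, so that the whole comparison, and not Nr1d1 alone, gave more calls. Thra, which overlaps Nr1d1, had 2744 to 3091 exon reads per pool and was itself called lower in ONC (log2 fold change -0.19, edgeR adjusted p = 0.0935), and its part in the Nr1d1 value was not tested.

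Nr1d2 stood at 273, 273 and 242 CPM in sham and at 231, 255 and 241 in ONC, a log2 fold change of -0.12 (SE 0.06, 95% interval -0.25 to 0.02, edgeR adjusted p = 0.368). Sham replicate 3 lay among the ONC pools and the other two sham pools above them. Dbp stood at 119, 101 and 112 in sham and at 118, 97.2 and 107 in ONC, a log2 fold change of -0.04 (SE 0.08, 95% interval -0.21 to 0.12, edgeR adjusted p = 0.823). Dbp thus varied within each group by more than the groups differed, with coefficients of variation of 8.49% in sham and 9.48% in ONC.

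**Figure D2:**
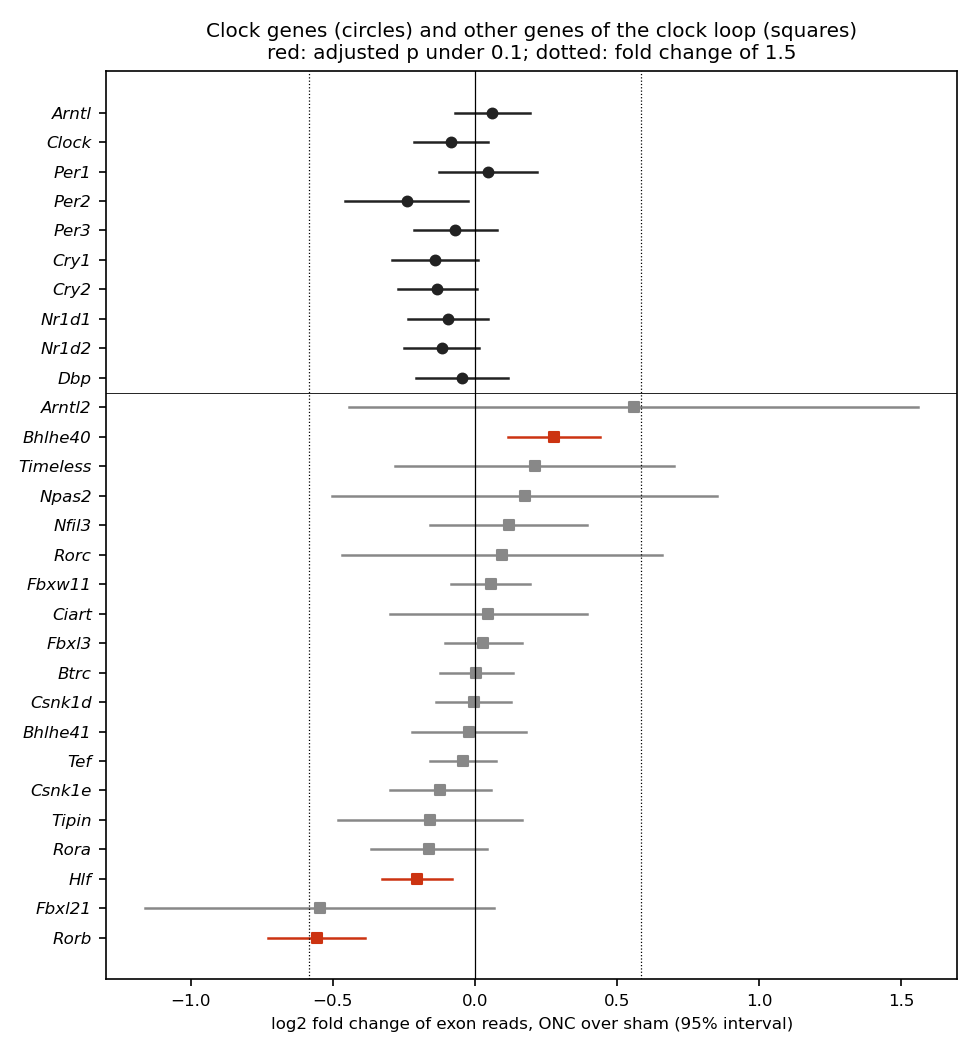
log2 fold change of exon reads, ONC over sham, with its 95% interval (horizontal axis), for the 10 clock genes (circles) and 19 other genes of the clock loop (squares), with genes called at an adjusted p under 0.1 in red and dotted lines at a fold change of 1.5. All intervals of the 10 clock genes lie between the dotted lines, and Bhlhe40, Hlf and Rorb are the called genes.

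The direction of these small differences depends on the scale. RPKM takes intron reads into its divisor, and on its scaling the median log2 fold change of all genes tested moves to 0.13. Then 7 of the 10 clock genes lay above 0, though 8 of 10 were still below the median of all genes, as on the TMM scale. In RPKM, 0 clock genes were below sham in every ONC pool and 1 was above it in every one, Arntl, where 25.4% of all genes tested were. Arntl had 28.6, 28.5 and 25.9 RPKM in sham and 29.2, 33.8 and 31.3 in ONC. Per2 had 3.61, 3.66 and 3.38 RPKM in sham and 3.39, 3.18 and 3.24 in ONC, so that the lowest sham pool lay below the highest ONC pool.

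Whether the pools differed in clock phase was described from the deviation of each gene in each pool from its own mean over the 6 pools, on the log2 scale and with no test. The range over the 6 pools was smallest in Arntl, at 0.14, and largest in Per2, at 0.33, with Per1 at 0.32, Cry2 at 0.31, Dbp at 0.30 and Nr1d1 at 0.28. The ratio of highest to lowest pool was thus at most 1.26 in any clock gene. The median coefficient of variation of the 10 genes was 4.85% in sham and 5.74% in ONC, below the medians of 6.85% and 7.76% over all genes with a mean RPKM above 1. Above these medians lay 2 clock genes in sham, Per1 (7.26%) and Dbp (8.49%). In ONC there were 3, Per1 (11.9%), Nr1d1 (10.0%) and Dbp (9.48%). The genes compared were not matched in level to the clock genes.

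Within the ONC group, Arntl was ordered opposite to Per1, Nr1d1 and Dbp. ONC replicate 1 had the highest Per1, Nr1d1 and Dbp of the group and the lowest Arntl, and ONC replicate 2 the lowest Per1, Nr1d1 and Dbp and the highest Arntl. The deviations of replicates 1 and 2 were 0.21 and -0.10 for Per1, 0.11 and -0.17 for Nr1d1, 0.11 and -0.16 for Dbp, and -0.04 and 0.10 for Arntl. Per2 (-0.03 and -0.20) and, by little, Cry1 (-0.06 and -0.09) were also highest in ONC replicate 1 and lowest in replicate 2. So were Hlf, Bhlhe41 and Rora of the other loop genes. Not every clock gene kept to this order. Per3 and Nr1d2, which share the E-box drive, were lowest in ONC replicate 1. Of the activators, Npas2 ran with Per1 and Dbp (0.70 in replicate 1 and -0.41 in replicate 2), and Clock, like them, was lowest in replicate 2 (-0.08). Among sham pools the same genes kept no common order: Per1 and Dbp were highest in replicate 1, Nr1d1 in replicate 3 and Cry1 and Cry2 in replicate 2, and the deviations of Arntl were -0.02, -0.03 and -0.04.

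The ratio of Dbp to Arntl, in CPM of exon reads, was 1.09, 0.923 and 1.03 in sham and 1.08, 0.814 and 0.944 in ONC, with overlap. The ratio of Nr1d1 to Arntl was 1.97, 1.94 and 2.04 in sham and 2.07, 1.55 and 1.74 in ONC, so that ONC replicate 1 lay above the sham pools and the other two below them. A single index, the mean log2 level of Per1, Per2, Per3, Nr1d1, Nr1d2 and Dbp minus that of Arntl, Clock and Npas2, was 1.67, 1.44 and 1.39 in sham and 1.26, 1.46 and 1.41 in ONC. It overlapped between the groups. Npas2, a stand-in partner for CLOCK, had only 41 to 104 exon reads per pool and moved the index most, with a range of 1.16. Without it, a choice made after the values were seen, the index was -0.27, -0.36 and -0.28 in sham and -0.27, -0.45 and -0.41 in ONC, and ONC replicate 1 lay among the sham pools while the other two lay below them.

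**Figure D3:**
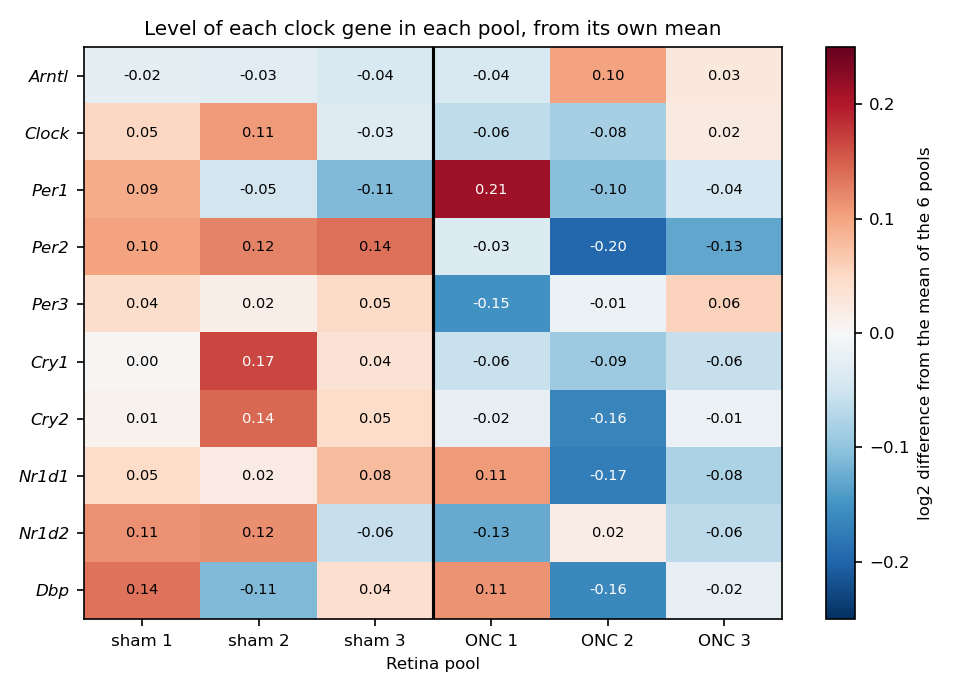
log2 difference of each clock gene (rows) in each retina pool (columns, 3 sham on the left and 3 ONC on the right) from its mean over the 6 pools, with the value in each cell and red for higher and blue for lower. ONC replicate 1 (Per1 0.21, Arntl -0.04) and ONC replicate 2 (Per1 -0.10, Arntl 0.10) show opposite signs in Per1, Nr1d1, Dbp and Arntl.

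Across the 6 pools, Arntl ran opposite to Nr1d1 (Pearson r = -0.97), Per2 (r = -0.85) and Cry2 (r = -0.81), and Dbp ran with Nr1d1 (r = 0.77) and Per1 (r = 0.72). Others showed no such relation, or one of the other sign: r was 0.04 for Arntl with Nr1d2, 0.12 with Per3 and -0.42 with Clock, and -0.26 for Dbp with Nr1d2, -0.21 with Per3 and -0.12 with Cry1. These values describe 6 pools in which all genes of a pool come from 1 library, and each holds both the difference between groups and that within them. Of 11976 genes with a mean RPKM above 1, those most like Dbp were Slc4a8, Bhlhe41, Zfp853, Dscaml1 and Coro7 (r = 0.97 to 0.98). Bhlhe41 (DEC2), an E-box repressor of the clock, is the one clock gene among them. It stood highest in replicate 1 and lowest in replicate 2 in both groups, as Dbp did, which goes with its high r. The genes most like Arntl were Igj, 1700088E04Rik, Fam45a, Dynlrb1 and Ltbr (r = 0.99). Both sets were picked as the highest r of that search over only 6 pools, so these r are no evidence of a link.

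Reads on introns, taken as gene reads minus exon reads, include unspliced RNA and give a second readout of the same genes. Of 11324 genes with at least 10 intron reads on average, edgeR called 3.59%, and of the 10 clock genes 0, also with 0 at an unadjusted p under 0.05, against 18.6% of all genes tested. No other tool was run on them. The depth was low for Per1, with 18 to 90 intron reads per pool, and Per2, with 61 to 130, and neither gene allows a firm statement (log2 fold changes 0.48, SE 0.46, and 0.09, SE 0.32). Arntl had 886, 973 and 1152 intron reads in sham and 797, 705 and 985 in ONC, a log2 fold change of -0.22 (SE 0.15, edgeR adjusted p = 0.443).

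Of the 10 clock genes, 1 was above sham in every ONC pool by intron reads, Cry2, where 11.9% of all genes tested were. Its CPM of intron reads were 59.6, 64.5 and 57.7 in sham and 70.8, 76.6 and 79.1 in ONC, a log2 fold change of 0.32 (SE 0.17, 95% interval -0.04 to 0.67, edgeR adjusted p = 0.324). With uniquely mapped intron reads alone the value was 0.76 (SE 0.26, edgeR adjusted p = 0.149), also not called. D930015M05Rik, which overlaps Cry2, had 0 exon reads in every pool. Its part in the intron reads of Cry2 was not tested, so the value is uncertain. The exon reads of Cry2 lay below sham in every ONC pool, as given above, and the difference between the 2 readouts was not tested. The intron log2 fold changes of the remaining genes were 0.31 (SE 0.18) for Dbp, 0.15 (SE 0.15) for Nr1d1, -0.04 (SE 0.15) for Per3, -0.04 (SE 0.14) for Clock, -0.05 (SE 0.14) for Nr1d2 and -0.10 (SE 0.18) for Cry1. The Clock value depended on reads that map to more than one place. With uniquely mapped intron reads alone it was -0.43 (SE 0.18, edgeR adjusted p = 0.223), also not called.

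**Figure D4:**
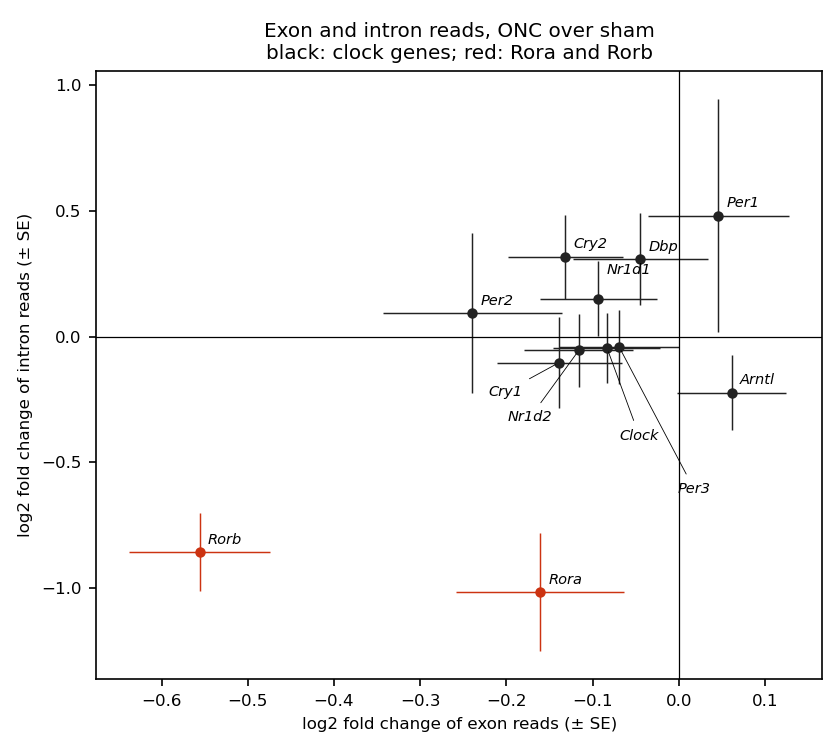
log2 fold change, ONC over sham, of exon reads (horizontal axis) and of intron reads (vertical axis) for the 10 clock genes (black) and for Rora and Rorb (red), with bars of ± SE. The clock genes lie within 0.24 of 0 on the exon axis, Per1 is the highest on the intron axis with the widest bar, and Rora and Rorb are lowest by introns.

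Other genes of the loop set the 10 in context. Of 19 further clock genes, all tested, 1 was called higher in ONC and 2 lower, where 6.09% of all genes tested were called. Their median log2 fold change was 0.01. Rorb, a ROR receptor that acts on the same element as NR1D1 and is strongly expressed in retina, stood at 262, 301 and 263 CPM in sham and at 192, 160 and 210 in ONC. No pools overlapped, and the log2 fold change was -0.56 (SE 0.08, edgeR adjusted p = 0.000235), called in all 18 alternatives. The horizontal cell and ganglion cell markers were also below sham in every ONC pool in their sums, and their part in the Rorb value was not tested. Rora, its relative, had a log2 fold change of -0.16 by exons (SE 0.10, edgeR adjusted p = 0.429) and was called without ONC replicate 1.

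By introns both receptors were called lower, Rorb at -0.86 (SE 0.15, edgeR adjusted p = 0.0398) and Rora at -1.02 (SE 0.24, edgeR adjusted p = 0.0624), while Arntl, their shared target, was not called by exons or introns. Rorb spans 181 kb and Rora 725 kb, and of the 1884 genes longer than 100 kb, 12.3% were called by introns, 232 lower and 0 higher, with a median intron log2 fold change of -0.42. Arntl, with 107 kb, belongs to these long genes. With the trend with gene span removed, Rorb stayed called by introns at -0.46 (edgeR adjusted p = 0.0778) and Rora, at -0.36, was not (edgeR adjusted p = 0.218). Both lost the intron call without sham replicate 2, without ONC replicate 2 and without ONC replicate 3 (edgeR adjusted p = 0.116 to 0.329).

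Bhlhe40 (DEC1), an E-box repressor that is also induced by many kinds of stress, rose from 55.0, 62.7 and 59.1 CPM to 75.4, 71.7 and 67.4, without overlap (log2 fold change 0.28, SE 0.08, edgeR adjusted p = 0.0498). The call was lost without sham replicate 1 (edgeR adjusted p = 0.202), without sham replicate 3 (0.162) without ONC replicate 2 (0.145) and with the trend with gene span removed (0.134). Hlf, a D-box activator related to Dbp, was called at -0.20 (SE 0.06, edgeR adjusted p = 0.0592), from 241, 237 and 232 to 217, 198 and 202, and was called in 8 of 18 alternatives. Its call was lost in each fit without 1 sham pool and without ONC replicate 2 or 3 (edgeR adjusted p = 0.151 to 0.213). It was also lost on the scale of RPKM, where the groups overlapped. With the RPKM divisor the log2 fold change of Hlf was -0.08 (edgeR adjusted p = 0.487). It was also -0.08 in limma on log2 RPKM plus 0.1 (limma adjusted p = 0.529) and plus 1 (0.527). Tef, the third D-box activator of this kind, had a log2 fold change of -0.04, Nfil3, the D-box repressor, 0.12, Ciart, a repressor of the activator pair, 0.05, and Bhlhe41 -0.02, and 0 of these 4 were called by edgeR, also with 0 at an unadjusted p under 0.05. Only 38.35% to 49.01% of the Ciart exon reads were uniquely mapped, so its value is uncertain.

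Lists of genes tied to the clock or to the induction of Per1 were set beside it. Of 10 known rhythmic output genes, 9 were tested, with a median log2 fold change of -0.02. Of these, 2 were called, where 6.09% of all genes tested were. Adcyap1, which encodes the peptide PACAP of the light pathway to the brain clock, was called higher (log2 fold change 1.77, SE 0.17, edgeR adjusted p = 2.21e-06). Opn4, which encodes the melanopsin of the ganglion cells that set the clock by light, was called lower (log2 fold change -0.78, SE 0.23, edgeR adjusted p = 0.0626), from 103, 179 and 115 exon reads to 95, 88 and 83. The Opn4 call was lost without sham replicate 2 or 3 and without ONC replicate 2 or 3 (edgeR adjusted p = 0.124 to 0.346). It was not called by limma on log2 RPKM plus 0.1 (log2 fold change -0.59, adjusted p = 0.134) or plus 1 (-0.39, adjusted p = 0.128). Its fall moved with that of the ganglion cell markers, whose part was not tested. Drd4, a dopamine receptor gene with a strong photoreceptor rhythm, was not called by edgeR (log2 fold change 0.18, SE 0.07, edgeR adjusted p = 0.213), nor was Adcy1, a rhythmic adenylyl cyclase gene (-0.17, SE 0.06, edgeR adjusted p = 0.122). DESeq2, edgeR without the filter on low values and edgeR without ONC replicate 1 called Adcy1, and both limma fits and the RPKM divisor called Drd4. Noct (listed as Ccrn4l), which encodes the rhythmic enzyme nocturnin, was not called (-0.18, SE 0.11, edgeR adjusted p = 0.401).

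Of 14 genes induced by light or CREB, 13 were tested and 2 were called, where 6.09% of all genes tested were. Both were higher in ONC, Egr1 (log2 fold change 1.05, SE 0.11, edgeR adjusted p = 7.34e-06) and Dusp1 (0.57, SE 0.11, edgeR adjusted p = 0.00244). Adcyap1, Egr1 and Dusp1 are in the study's own list of changed genes, chosen on these samples, and are no independent evidence of a direction. Over the 13 tested, the median log2 fold change was 0.18, against 0.01 over all genes tested. Below 0 were 2 of the 13, against 47.7% of all genes. Above sham in every ONC pool were 4 of the 13, Egr1 and Dusp1 among them, against 11.0% of all genes. Below sham in every ONC pool was 1, against 10.8% of all genes. Fos, often induced together with Per1, had a log2 fold change of 0.03 and Per1 itself one of 0.05. Of 9 genes induced by glucocorticoids, which also induce Per1, 8 were tested and 1 was called, where 6.09% of all genes tested were. It was Sgk1, higher in ONC (log2 fold change 0.19, SE 0.05, edgeR adjusted p = 0.0506). That call was lost without sham replicate 2 or 3 and without ONC replicate 3 (edgeR adjusted p = 0.197 to 0.241), and Fkbp5, another glucocorticoid target, had a log2 fold change of 0.04.

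**Figure D5:**
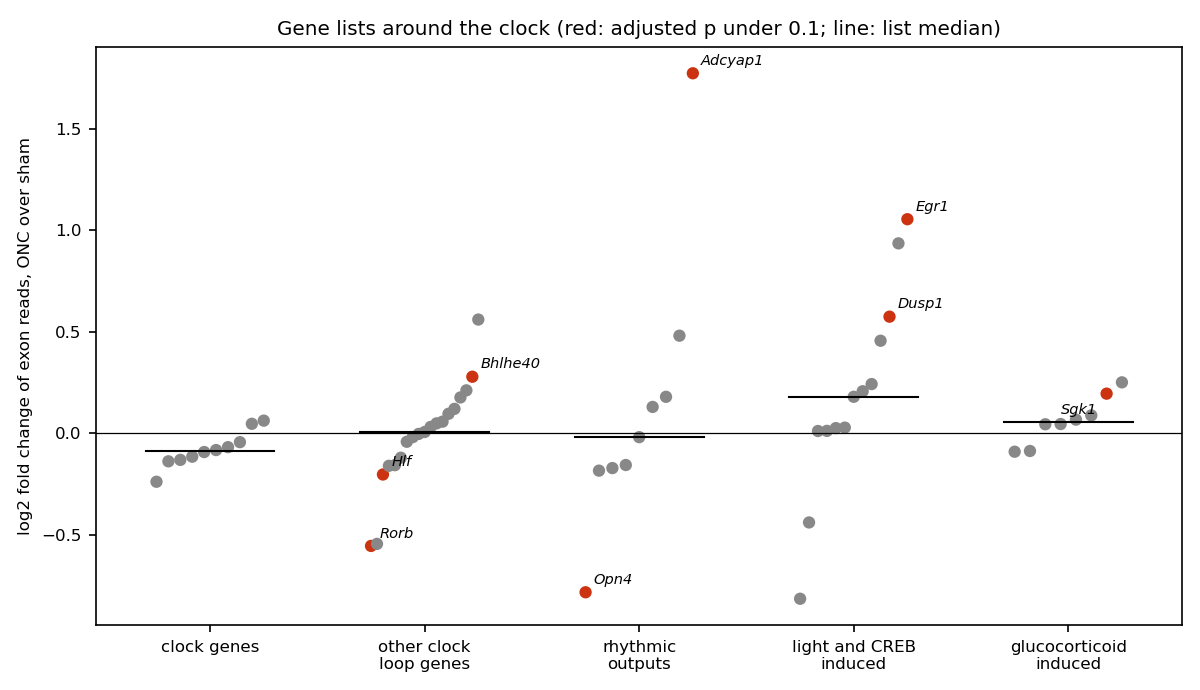
log2 fold change of exon reads, ONC over sham (vertical axis), of each tested gene in the 10 clock genes, 19 other clock loop genes, 9 rhythmic outputs, 13 light and CREB induced genes and 8 glucocorticoid induced genes, with called genes in red and a line at each median. The clock genes form the narrowest group, from -0.24 to 0.06, with no gene in red.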

How the data were processed

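The authors pooled RNA from 6 retinas per sample, prepared TruSeq libraries and mapped the reads with CLC Genomics Workbench 6.0.1. Per sample they deposited unnormalized counts of exon and gene reads per gene, an intact pair counting as 1, and RPKM values. The labels name mm9, while positions match GRCm38. A deposited column of group mean RPKM was not used. Groups and replicate numbers came from the labels.

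Total exon reads of 13670 genes (mean RPKM above 0.3 in a group) were compared in edgeR 4.0.16 (TMM, glmQLFit, glmQLFTest, R 4.3.3), with group as the sole term and p-values adjusted by Benjamini-Hochberg. The standard error is the log2 fold change divided by the square root of F. Intron reads (at least 10 on average) were fitted likewise. The procedure was tested on simulated data. DESeq2 1.42.0 and limma 3.58.1 (on log2 RPKM plus 0.1 or 1) were alternatives. With equal replicate numbers, deviations from the group means correlated by -0.05, -0.03 and 0.003, so the numbers were not taken as pairs.

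Clock genes, lists and alternatives were chosen with earlier results of these data known. Named were all 10 clock genes, called genes of the other lists, those above 5 RPKM, and 9 set loop genes. Promoters came from RefSeq (GRCm38.p6).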

Additional observations from a re-analysis of the deposited data

How the results depend on the processing

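Each result was recomputed under 18 alternatives for exon reads and up to 11 for intron reads, the removal of a trend with gene span being chosen after the data were seen. Of the 10 clock genes, 0 were called by exons in 17 of 18 alternatives, and leaving out 1 pool gave 0 to 1 (Nr1d1, without ONC replicate 1), while introns gave 0 in all 11. Over all genes, leaving out 1 pool gave 371 (without sham replicate 2) to 2031 calls (without ONC replicate 1), and the divisor of RPKM gave 1730 against 833. The replicate block gave 728, called 0 of the 10 clock genes and lost Hlf (edgeR adjusted p = 0.106) and Sgk1 (0.123), leaving 0 glucocorticoid induced genes, and changed no other call of a gene in the clock lists. Called other clock genes numbered 1 to 4 without 1 pool, and rhythmic outputs 1 to 4, or 4 with the RPKM divisor. Light and CREB induced genes numbered 4 in limma with either pseudocount (0.1 or 1), with Ier2 and Arc added, and glucocorticoid induced genes 2 with the RPKM divisor and 0 to 1 without 1 pool.

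No clock gene whose direction turned was called in either direction where it turned. With the RPKM divisor, limma plus 0.1 and limma plus 1, in this order, exon log2 fold changes were 0.0537, 0.0502 and 0.0467 for Per3, 0.0361, 0.0394 and 0.0371 for Clock, 0.0271, 0.0249 and 0.0246 for Nr1d1, 0.0036, 0.0076 and 0.0073 for Nr1d2, and 0.0755, 0.0770 and 0.0756 for Dbp. This follows from the shift of all genes by that divisor. With total gene reads Dbp was at 0.0076 and Arntl at -0.0637. Leaving out 1 pool, Per1 ran from -0.0551 to 0.1028 and Dbp from -0.1147 to 0.0173. By introns without TMM, Per3 was at 0.1375, Cry1 at 0.0894, Clock at 0.1429 and Nr1d2 at 0.1228. With the span trend removed, intron values were 0.0049 for Per3, 0.0139 for Cry1, 0.0467 for Arntl, 0.1981 for Clock, -0.1573 for Nr1d1 and -0.0579 for Dbp. Leaving out 1 pool, intron values ran from -0.1438 to 0.481 for Per2, -0.1619 to 0.0234 for Per3, -0.1207 to 0.0129 for Clock and -0.1598 to 0.0005 for Nr1d2. The other causes were not tested. The mean of at least 50 intron reads left Per1 without a value. The smallest difference that 3 pools per group can detect was not measured.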
